A study of Mus musculus with 35 samples.

Results

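The genes described here encode the occludin, junctional adhesion molecule, nectin and scaffold proteins of epithelial junctions, measured in RNA of whole mouse testis. They were occludin (Ocln) and tricellulin (Marveld2), the junctional adhesion molecules F11r, Jam2 and Jam3, the related receptor Cxadr, the nectins Nectin2 and Nectin3, and the zonula occludens scaffolds Tjp1 and Tjp3. The genes were chosen by symbol, with earlier results of these data known. Every probe set that the array annotation gives to these symbols was read. All 10 symbols were found on both array types and passed the filter on low values, which makes 10 of 19938 named genes at postnatal day 15 and 10 of 18194 at day 25. Each gene had 1 probe set at day 15, and the genes had 27 probe sets between them at day 25.

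The study crossed Akt1 genotype with exposure to propylthiouracil (PTU), a goitrogen that blocks thyroid hormone synthesis, in male C57BL6 mice. The groups at each age were unexposed and PTU-exposed wild type (Akt1+/+), unexposed and PTU-exposed heterozygous (Akt1+/-), and unexposed and PTU-exposed homozygous (Akt1-/-) mice. Every group had 3 arrays, each from its own mouse per the design text, except the PTU-exposed homozygous group at day 25, which had 2. The title of the series names the blood-testis barrier as its subject. The sources used here do not state the dose and days of exposure or the way the Akt1 allele was made, and the label of a tissue says only testis.

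Sertoli cells join each other near the base of the seminiferous epithelium and so form the blood-testis barrier, which divides the tubule into a basal and an adluminal space. Occludin and the claudins span the membrane at the tight junction, tricellulin seals the corners where cells meet, and the zonula occludens proteins tie these strands to actin. Junctional adhesion molecules and Cxadr are immunoglobulin-type adhesion proteins of Sertoli and germ cells, and the nectins hold cells together at adherens junctions. In the testis Nectin2 on the Sertoli cell is known to bind Nectin3 on the spermatid. Spermatocytes pass through the barrier from the basal to the adluminal space.

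RefSeq start-site windows were found for 7 of the 10 genes, in build GRCm38.p6. Jam2, Jam3 and Cxadr had no entry in the table used. The windows below are the 250 bases upstream of the annotated start of 4 genes, read on the coding strand, and are shown because Ocln and F11r on one side and Nectin3 on the other took opposite directions in several comparisons and because Ocln and Tjp3 hold the element named next. Capitals mark AGGTCA or its reverse complement TGACCT, the core element read by thyroid hormone receptors and by many other nuclear receptors, and GGGCGG or its reverse complement CCGCCC, the GC box. The windows are chr13:100552719-100552968 (minus strand), chr10:81291582-81291831 (minus strand), chr1:171437311-171437560 (plus strand) and chr16:46496968-46497217 (minus strand). That of Nectin3 lies inside its longest annotated gene model.
Ocln: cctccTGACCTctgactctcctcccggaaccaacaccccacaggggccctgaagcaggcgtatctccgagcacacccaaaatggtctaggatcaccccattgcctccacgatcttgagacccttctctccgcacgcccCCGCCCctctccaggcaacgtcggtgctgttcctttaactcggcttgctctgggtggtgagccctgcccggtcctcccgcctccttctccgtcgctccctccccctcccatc
Tjp3: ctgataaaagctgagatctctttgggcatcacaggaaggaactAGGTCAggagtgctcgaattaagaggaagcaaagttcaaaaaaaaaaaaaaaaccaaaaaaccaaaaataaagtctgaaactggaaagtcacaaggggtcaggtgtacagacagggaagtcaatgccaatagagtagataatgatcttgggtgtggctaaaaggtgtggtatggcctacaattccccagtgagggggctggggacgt
F11r: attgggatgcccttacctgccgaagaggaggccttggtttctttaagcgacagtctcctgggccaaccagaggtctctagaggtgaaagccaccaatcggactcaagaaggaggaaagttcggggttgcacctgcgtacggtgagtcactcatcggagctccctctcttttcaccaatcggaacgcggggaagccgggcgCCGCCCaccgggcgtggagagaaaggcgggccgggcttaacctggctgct
Nectin3: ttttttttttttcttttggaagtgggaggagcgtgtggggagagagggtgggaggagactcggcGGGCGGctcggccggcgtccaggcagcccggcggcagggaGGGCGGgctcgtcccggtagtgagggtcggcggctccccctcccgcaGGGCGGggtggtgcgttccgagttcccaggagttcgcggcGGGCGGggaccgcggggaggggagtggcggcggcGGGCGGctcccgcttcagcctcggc
The 7 genes have 10 windows in the table, since Ocln, Tjp3 and Marveld2 each have a second annotated start. AGGTCA on either strand was found in 2 of the 10 windows, those of Ocln and Tjp3 shown here, against 14.0% of 32851 RefSeq windows of the same length, and the second windows of both genes do not hold it. GGGCGG on either strand was found in 8 of the 10 windows (of F11r, Marveld2, Nectin2, Nectin3, Ocln and Tjp1), against 32.7% of windows. The 2 Marveld2 windows overlap and hold the same GGGCGG, so that site is counted 2 times. All of these are letter matches, and no binding was measured. In GRCm38.p6 Ocln (chr13:100496504-100552718) and Marveld2 (chr13:100595957-100616971) are neighbouring coding genes. Cxadr (chr16:78301226-78359785) and Jam2 (chr16:84774123-84826380) lie on the same chromosome as Nectin3 (chr16:46387665-46498535).

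The values are log2 intensities, so a difference of 1 is a change of 2-fold. A gene is said to rise or fall where limma's adjusted p, over all genes tested at that age, lies under 0.05, and differences are given with limma's moderated standard error. Levels are compared within a probe set and never between probe sets or ages. Whole testis RNA was measured, so fewer cells of a type and less RNA per cell cannot be told apart.

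The targeted gene did not separate the genotypes on every probe set. At day 15 Akt1 lay between 9.34 and 10.09 in wild type, between 8.83 and 9.96 in heterozygous and between 9.01 and 9.74 in homozygous arrays. At day 25 the probe set 1425711_a_at had means of 9.04, 8.68 and 8.24 in that order, while the brightest had 9.49, 9.40 and 9.41. The sources used here do not say whether these probes lie in the altered part of the gene. Several arrays stood apart. Spink8, an epididymal gene, lay above 7 in 3 arrays at day 15 (unexposed wild type 2 and 3 and PTU-exposed homozygous 2) and in 4 at day 25. Those 4 were all PTU-exposed: wild type 3 (8.72), heterozygous 2 (10.07) and both homozygous arrays (12.92 and 12.75). The 2 exposed homozygous arrays of day 25 also had the lowest spermatid marker means of their age (6.54 and 5.47, against 8.75 to 12.54 in the others). Their general epithelial marker means were the highest (8.49 and 8.89, against 6.73 to 7.30). The arrays of day 15 fell into 2 sets on unnamed probe sets, the first holding all wild type arrays and the second none. All arrays had Sertoli marker means of 9.68 or more.

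At day 15, unexposed homozygous testes had more RNA than unexposed wild type testes for 5 of the 10 genes (Ocln, F11r, Jam2, Cxadr and Nectin2) and less for Nectin3. Of all genes tested in this comparison, 28.9% passed, 14.6% higher and 14.2% lower. The median difference of the 10 genes was 0.36, against 0.08 over all genes. The rises were of 1.37 to 1.82-fold, and Nectin3 fell to 0.48 of the wild type level. For 9 of the 10 genes the groups did not overlap, against 48.9% of all genes.

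**Figure D1:**
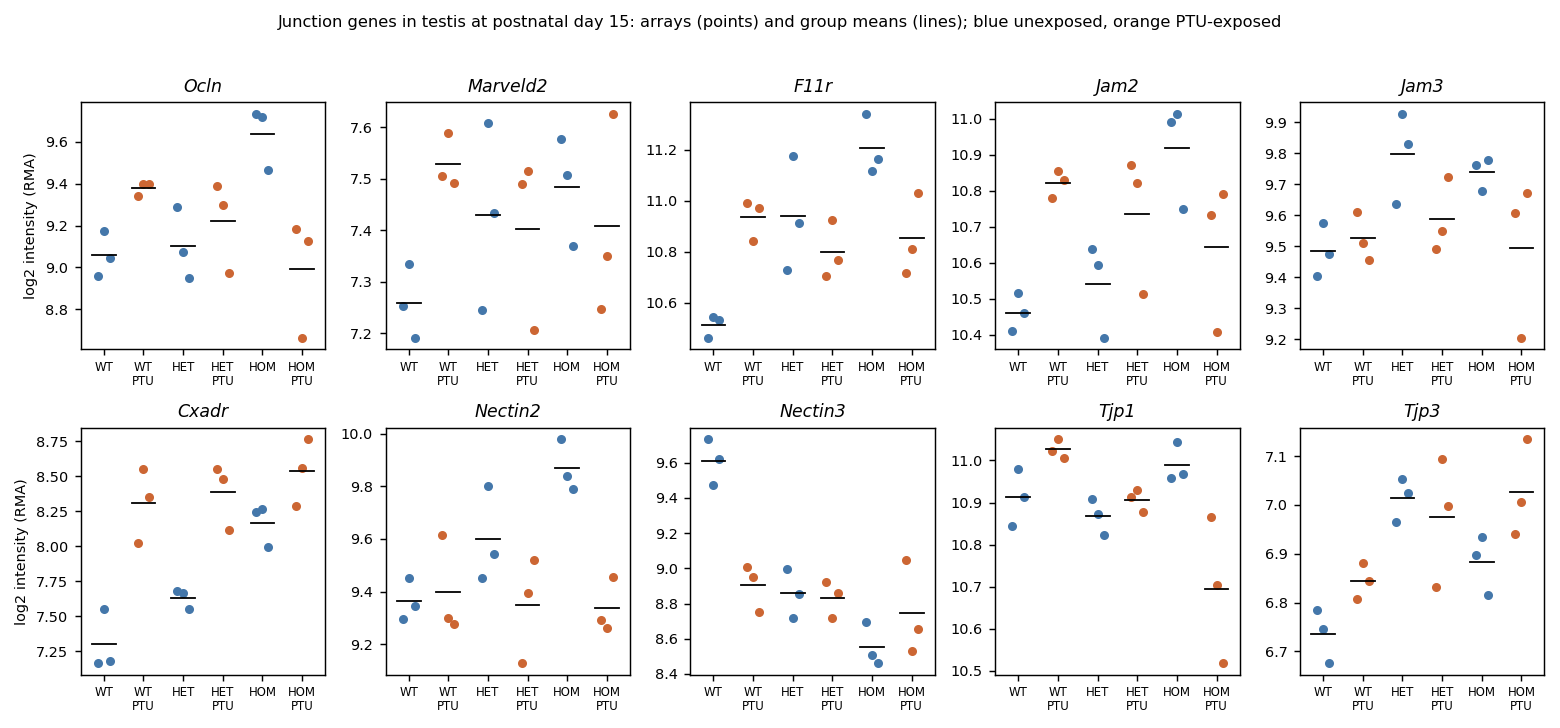
Log2 intensity of the 10 genes at postnatal day 15, 1 panel per gene; points are arrays, lines are group means, blue is unexposed and orange PTU-exposed, with 3 arrays per group. Unexposed wild type arrays are the lowest for F11r and the highest for Nectin3, and unexposed homozygous arrays are the highest for Nectin2.

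Ocln, the founding membrane protein of the tight junction, read 8.96, 9.17 and 9.04 in wild type and 9.73, 9.72 and 9.46 in homozygous mice, both unexposed. The groups did not overlap. The difference was 0.58 ± 0.14 (adjusted p = 0.00473). Marveld2, of the same protein family, read 7.25, 7.33 and 7.19 against 7.58, 7.51 and 7.37. The groups did not overlap there either, but the difference of 0.23 ± 0.12 did not pass (adjusted p = 0.156).

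Among the adhesion molecules, F11r (JAM-A) read 10.46, 10.54 and 10.53 in unexposed wild type and 11.34, 11.12 and 11.17 in unexposed homozygous arrays. All homozygous arrays lay above all wild type arrays, by 0.70 ± 0.11 (adjusted p = 0.000207). Jam2 read 10.41, 10.52 and 10.46 against 10.99, 11.01 and 10.75, and rose by 0.46 ± 0.12 (adjusted p = 0.00751). Jam3 read 9.40, 9.58 and 9.47 against 9.76, 9.68 and 9.78. Its groups did not overlap, and its difference of 0.26 ± 0.11 did not pass (adjusted p = 0.105). Cxadr, known also as the coxsackie and adenovirus receptor, read 7.16, 7.55 and 7.18 against 8.25, 8.26 and 7.99. That was the largest rise of the 10 genes in this comparison, 0.87 ± 0.16 (adjusted p = 0.00051), with no overlap.

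The nectins moved in opposite directions. Nectin2, the Sertoli partner of the pair, read 9.29, 9.45 and 9.35 in unexposed wild type and 9.98, 9.84 and 9.79 in unexposed homozygous arrays, a rise of 0.51 ± 0.12 (adjusted p = 0.00483). Nectin3 read 9.74, 9.48 and 9.62 against 8.70, 8.51 and 8.46, a fall of 1.06 on the log2 scale (standard error 0.13, adjusted p = 1.49e-05). Spermatid marker list means lay at 5.61 to 5.88 in all arrays of day 15, near the filter on low values (5.56). Neither gene's groups overlapped. The scaffolds did not pass. Tjp1 differed by 0.08 ± 0.08 (adjusted p = 0.523) and Tjp3 by 0.15 ± 0.08 (adjusted p = 0.201).

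Within the first array set, where 2 homozygous arrays met all 3 wild type arrays, the same 6 differences were 0.67 for Ocln, 0.72 for F11r, 0.54 for Jam2, 0.96 for Cxadr, 0.55 for Nectin2 and -1.01 for Nectin3, and all 6 passed. Without the arrays high in Spink8, which left 1 unexposed wild type array, the call of Nectin2 was lost (0.58). Cell type markers differed between the same groups. Of 15 Sertoli markers 9 rose and 1 fell, and the list mean was 10.52 to 10.77 in homozygous against 10.26 to 10.41 in wild type arrays. Of 12 pachytene markers 11 fell, with list means of 6.47 to 7.44 against 9.86 to 10.33. Of 10 spermatogonia markers 6 rose and 1 fell, of 10 early meiotic markers 9 fell, and of 10 macrophage markers 4 fell. Of 12 endothelial markers 4 rose and 0 fell, with list means of 7.43 to 7.62 against 7.10 to 7.31. The part of these shifts in the junction genes was not tested.

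Unexposed heterozygous testes at day 15 differed from wild type in 2 of the 10 genes, 1 higher and 1 lower, where 3.95% of all genes passed (0.718% higher and 3.23% lower). Groups without overlap made 5 of the 10, against 33% of all genes. Nectin3 read 8.997, 8.72 and 8.86, below all unexposed wild type arrays, by -0.75 ± 0.13 (adjusted p = 0.00223). The call was lost within the first array set (-0.61, adjusted p = 0.203), which held 1 unexposed heterozygous array. In the same comparison 5 of 12 pachytene markers fell, with list means of 8.30 to 8.94 against 9.86 to 10.33 in wild type arrays, and their part in the Nectin3 value was not tested. F11r read 10.73, 11.17 and 10.91 and was higher by 0.43 ± 0.11 (adjusted p = 0.0435). That call did not hold in 10 of 16 alternatives, among them the array set as a block (0.36, adjusted p = 0.154) and leaving out any single unexposed wild type array (0.40 to 0.44) or the heterozygous array 2 or 3 (0.31 and 0.44). With the sample number as a block Tjp3 passed as well (0.28, adjusted p = 0.0457).

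PTU exposure of wild type mice at day 15 raised 3 of the 10 genes (Cxadr, F11r and Jam2) and lowered Nectin3, where 15.3% of all genes passed (6.53% higher and 8.75% lower). For 8 of the 10 the groups did not overlap, against 45.1% of all genes. These differences share their unexposed wild type arrays with the genotype comparison above. Cxadr rose 2.01-fold, from 7.16, 7.55 and 7.18 to 8.02, 8.55 and 8.35, by 1.01 ± 0.16 (adjusted p = 0.000397). Nectin3 fell from 9.74, 9.48 and 9.62 to 9.01, 8.95 and 8.75, by -0.71 ± 0.13 (adjusted p = 0.00127). Neither gene's groups overlapped, and both calls held in all 16 alternatives. Of these, the fit without the arrays high in Spink8 kept 1 unexposed wild type array.

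The 2 smaller rises held less often. F11r went from 10.46, 10.54 and 10.53 to 10.99, 10.84 and 10.97, by 0.42 ± 0.11 (adjusted p = 0.0178). It did not pass without the unexposed wild type array 1 (0.40, adjusted p = 0.0786), without the PTU-exposed array 3 (0.40, adjusted p = 0.0721) or without the arrays high in Spink8 (0.47, adjusted p = 0.143). Jam2 went from 10.41, 10.52 and 10.46 to 10.78, 10.86 and 10.83, by 0.36 ± 0.12 (adjusted p = 0.0463). Its groups did not overlap, but leaving out any 1 of the 6 arrays ended the call (0.33 to 0.39, adjusted p = 0.0648 to 0.153). Ocln read 9.34, 9.40 and 9.40 after exposure, above the unexposed arrays, with a difference of 0.32 ± 0.14 that did not pass (adjusted p = 0.135). The other differences were 0.27 for Marveld2, 0.11 for Tjp1, 0.11 for Tjp3, 0.04 for Jam3 and 0.03 for Nectin2. In the same comparison 10 of 12 pachytene markers fell, with list means of 7.60 to 8.78 after exposure, 5 of 15 Sertoli markers rose and 2 fell, and 7 of 10 macrophage markers fell, with list means of 7.31 to 7.58 against 7.92 to 8.22. Their part in the result was not tested.

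**Figure D2:**
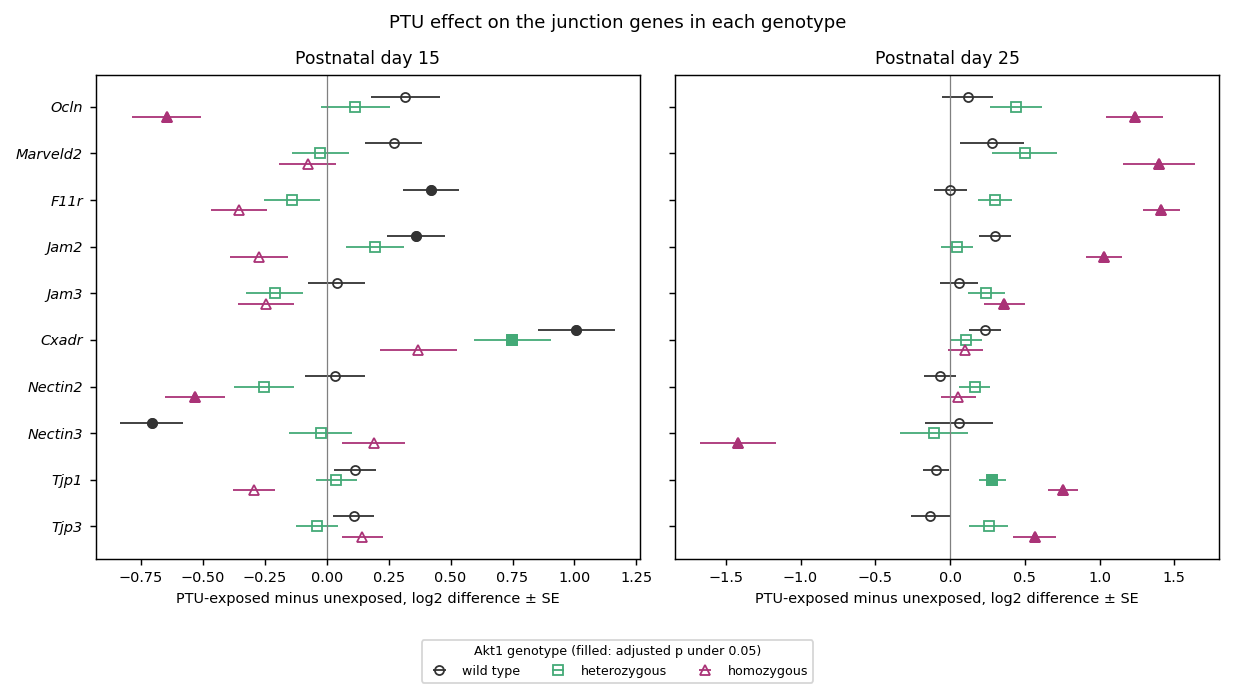
Difference between PTU-exposed and unexposed mice in log2 units for each gene, with standard error bars, in wild type, heterozygous and homozygous mice at day 15 (left) and day 25 (right); filled symbols passed at an adjusted p under 0.05. At day 15 Ocln differs by 0.32 in wild type and by -0.65 in homozygous mice, and at day 25 by 0.12 and 1.23.

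In heterozygous mice PTU raised 1 of the 10 genes at day 15, where 0.569% of all genes passed and 0.192% rose. Cxadr went from 7.68, 7.67 and 7.55 to 8.55, 8.48 and 8.12, by 0.75 ± 0.16 (adjusted p = 0.0363). Cxadr was 1 of the 10 genes without overlap, against 15.2% of all genes, but the call was lost in 10 of 17 alternatives, with differences of 0.51 to 0.88 throughout. It was lost without any 1 of the unexposed arrays (0.71 to 0.77) and without the exposed array 1 or 2 (0.67 and 0.70). Nectin3 in these mice read 8.997, 8.72 and 8.86 before and 8.92, 8.72 and 8.86 after, a difference of -0.02 ± 0.13. With PTU in heterozygous mice 4 of 10 macrophage markers fell, with list means of 7.02 to 7.41 against 7.80 to 8.05, and their part in the Cxadr value was not tested.

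In homozygous mice PTU lowered 2 of the 10 genes at day 15, Ocln and Nectin2, where 4.96% of all genes passed and 4.37% fell. For 7 of the 10 there was no overlap, against 20.4% of all genes. Ocln fell from 9.73, 9.72 and 9.46 to 9.18, 8.66 and 9.13, by -0.65 ± 0.14 (adjusted p = 0.0142). Nectin2 fell from 9.98, 9.84 and 9.79 to 9.29, 9.26 and 9.45, by -0.53 ± 0.12 (adjusted p = 0.0191). In both genes all exposed arrays lay below all unexposed arrays. Between alternatives the difference ran from -0.74 to -0.48 for Ocln and from -0.62 to -0.43 for Nectin2, and each call was lost in 7 of 17. For both genes these included leaving out the unexposed homozygous array 1 or 2 or the exposed array 2, which is high in Spink8. Without that exposed array the differences were -0.48 for Ocln and -0.50 for Nectin2. Within the first array set the differences were -0.54 for Ocln and -0.62 for Nectin2, and within the second -0.57 and -0.43, and none passed.

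The other genes did not pass in homozygous mice at day 15. Tjp1, which read 10.96, 11.04 and 10.97 before and 10.86, 10.70 and 10.52 after, differed by -0.29 ± 0.08 (adjusted p = 0.0535). F11r differed by -0.36 ± 0.11 (adjusted p = 0.0786) and Jam2 by -0.27 ± 0.12 (adjusted p = 0.176). Cxadr read 8.29, 8.56 and 8.77 after exposure and differed by 0.37 ± 0.16 (adjusted p = 0.172). Of 15 Sertoli markers 6 fell and none rose in this comparison, with list means of 10.13 to 10.35 after exposure, while no pachytene marker passed. The part of the Sertoli markers in the falls was not tested.

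The PTU effect itself differed between homozygous and wild type mice at day 15 for 6 of the 10 genes, 1 higher and 5 lower, where 16.4% of all genes passed (8.23% higher and 8.13% lower). For Ocln the effect was 0.32 in wild type and -0.65 in homozygous mice, a difference of -0.96 ± 0.20 (adjusted p = 0.00362). For F11r it was 0.42 and -0.36, a difference of -0.78 ± 0.16 (adjusted p = 0.00391). Nectin3 went the other way, with -0.71 and 0.19 and a difference of 0.90 ± 0.18 (adjusted p = 0.00327). These 3 calls held in all 22 alternatives, of which the fit without the arrays high in Spink8 kept 1 unexposed wild type array. For the same difference in effect 11 of 12 pachytene markers were higher (list median 3.16) and 5 of 15 Sertoli markers lower (list median -0.44), and their part in the junction gene values was not tested.

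Jam2 differed by -0.63 ± 0.16 (adjusted p = 0.0156) and lost its call in 1 alternative, without the arrays high in Spink8 (-0.57, adjusted p = 0.108). Nectin2 (-0.57 ± 0.17, adjusted p = 0.0326) and Tjp1 (-0.41 ± 0.12, adjusted p = 0.0279) each lost it in 9. For Tjp1 the difference within the first array set was -0.25 (adjusted p = 0.147). Leaving out 1 array ended the call of Nectin2 for 7 of 12 arrays (-0.58 to -0.46) and that of Tjp1 for 6 (-0.42 to -0.32). Cxadr, where exposure gave positive values in every genotype, did not pass (-0.64 ± 0.22, adjusted p = 0.057). The heterozygous effect was compared with the wild type effect in the same way, and 0 of the 10 genes passed, against 0.449% of all genes.

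Averaged over genotypes, 2 of the 10 genes passed for PTU at day 15, where 12% of all genes did (3.88% higher and 8.09% lower). Cxadr was higher by 0.71 ± 0.09 (adjusted p = 0.000159), a call that held in all 27 alternatives (0.62 to 0.77). Nectin2 was lower by -0.25 ± 0.07 (adjusted p = 0.0262) and lost its call in 8 of the 27 alternatives. Of 10 macrophage markers 9 fell in the same comparison, with a list median of -0.59. Of 12 pachytene markers 5 fell (list median -0.58), and of 15 Sertoli markers 5 fell and 1 rose (list median -0.03). The part of these marker shifts in the Cxadr and Nectin2 values was not tested. Between exposed homozygous and exposed wild type mice the groups did not overlap for 3 of the 10 genes, against 25.3% of all genes. In this comparison 0 of the 10 passed, and limma called 0% of all genes there, with 4266 genes at an unadjusted p under 0.05. Tjp1 passed once the sample number was a block (-0.33, adjusted p = 0.0422).

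The order of the group means at day 15 shows how the genes differ among themselves. Nectin3 was at 9.61 in unexposed wild type and at 8.90 or lower in all 5 other groups (8.90 exposed wild type, 8.86 unexposed and 8.83 exposed heterozygous, 8.74 exposed and 8.56 unexposed homozygous), whose arrays overlap from neighbour to neighbour. Cxadr was at 7.30 in unexposed wild type, 7.63 in unexposed heterozygous and 8.17 in unexposed homozygous mice, and at 8.31, 8.38 and 8.54 in the exposed groups in the same order, which overlap each other. Ocln was highest in unexposed homozygous mice (9.64), then in exposed wild type mice (9.38), and lowest in exposed homozygous mice (8.99). Tjp3 was at 6.74 in unexposed wild type and between 6.84 and 7.03 in the other groups.

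At day 25, in wild type mice, PTU changed 0 of the 10 genes, and limma called 0% of all genes, with 978 at an unadjusted p under 0.05. The differences lay between -0.13 (Tjp3) and 0.30 (Jam2, 9.07, 9.15 and 9.02 against 9.39, 9.34 and 9.42). Jam2 was the only one of the 10 whose groups did not overlap, against 20.5% of all genes. In heterozygous mice 1 of the 10 genes passed, against 18.7% of all genes (11.5% higher). Tjp1 went from 10.65, 10.44 and 10.50 to 10.76, 10.87 and 10.81, by 0.28 ± 0.09 (adjusted p = 0.0365). The groups did not overlap for 5 of the 10 genes, Tjp1 among them, against 40.9% of all genes. The call of Tjp1 was lost in 9 of 16 alternatives, including the sample number as a block (0.28, adjusted p = 0.0534) and leaving out the unexposed array 2 or 3 or any exposed array (0.24 to 0.31). It was also lost without the arrays high in Spink8 (0.25, adjusted p = 0.0911). With PTU in heterozygous mice all 11 spermatid markers fell, with list means of 8.75 to 10.34 against 11.36 to 12.54, while 6 of 14 Sertoli and 5 of 10 early meiotic markers rose, and their part in the Tjp1 value was not tested.

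Among unexposed mice at day 25, 0 of the 10 genes differed between homozygous and wild type (12.7% of all genes passed; 2065 genes by limma) and 0 between heterozygous and wild type (22.6%; 3680 genes). The groups did not overlap for 3 and 5 of the 10, against 38.1% and 43.6% of all genes. In homozygous against wild type the differences ran from -0.40 (Ocln, adjusted p = 0.139) to 0.17 (Tjp3). In heterozygous mice Jam3 came nearest, at -0.33 ± 0.12 (adjusted p = 0.0682). F11r, Ocln and Nectin3, which passed between unexposed homozygous and wild type mice at day 15, differed by -0.23, -0.40 and -0.28 here. Cell type markers did differ. In heterozygous against wild type 8 of 11 spermatid markers rose, with list means of 11.36 to 12.54 against 9.40 to 10.98. There 8 of 14 Sertoli and 5 of 10 early meiotic markers fell. In homozygous against wild type 4 of 11 spermatid markers rose (11.44 to 11.96) and 3 of 10 early meiotic markers fell. Their part in the junction gene values was not tested.

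**Figure D3:**
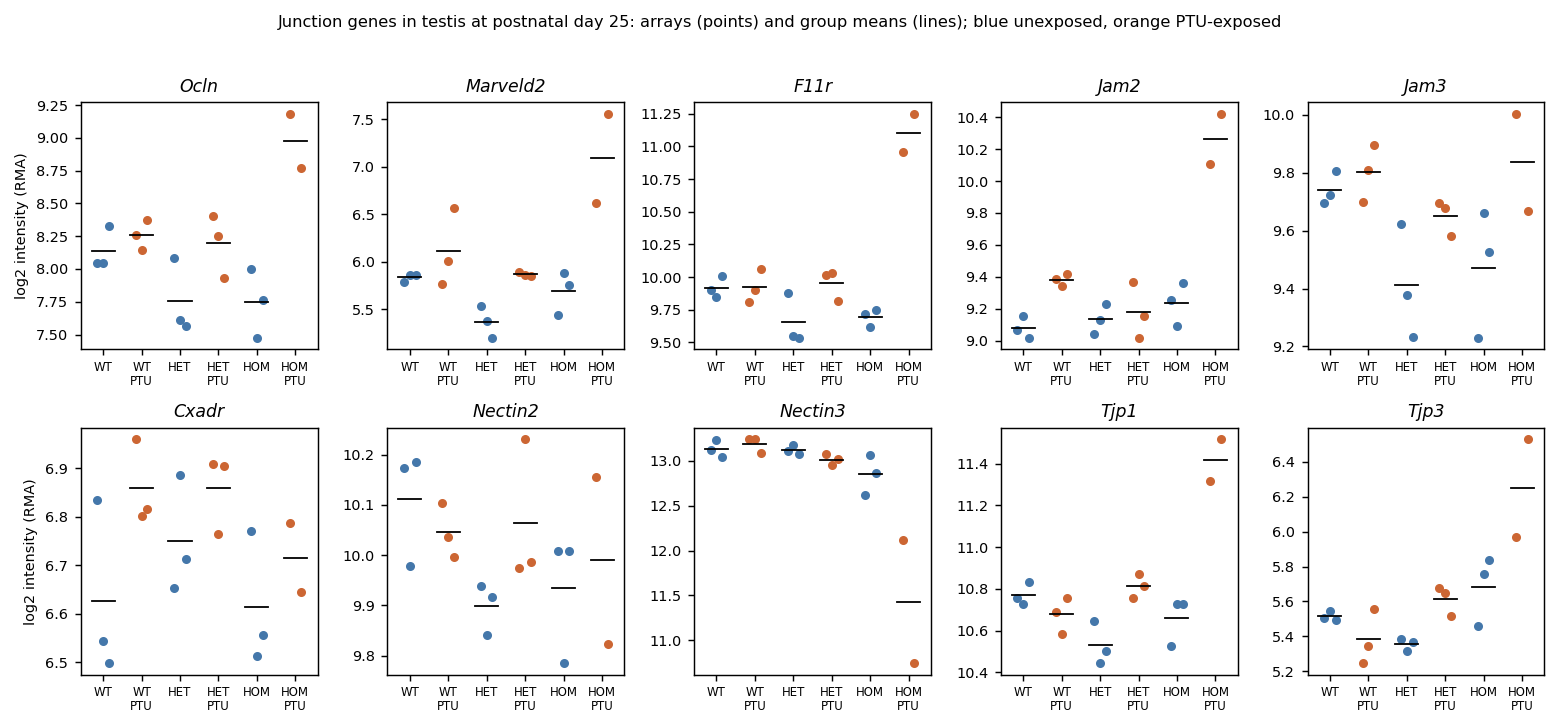
Log2 intensity at postnatal day 25 of the probe set standing for each of the 10 genes; points are arrays, lines are group means, blue is unexposed and orange PTU-exposed, with 3 arrays per group and 2 for exposed homozygous mice (HOM PTU). The exposed homozygous arrays are the highest for Ocln, Marveld2, F11r, Jam2, Tjp1 and Tjp3 and the lowest for Nectin3.

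Exposed homozygous mice at day 25 stood apart. PTU raised 7 of the 10 genes in homozygous mice and lowered 1, but 71.2% of all genes passed in this comparison (38.4% higher and 32.8% lower), so the count by itself sets the junction genes apart from nothing. The median difference was 0.66, against 0.02 over all genes. No overlap was seen for 8 of the 10, against 75.9% of all genes. F11r rose 2.66-fold, from 9.71, 9.62 and 9.74 to 10.96 and 11.25, by 1.41 ± 0.12 (adjusted p = 3.33e-07). Marveld2 rose from 5.44, 5.88 and 5.76 to 6.62 and 7.56, by 1.40 ± 0.24 (adjusted p = 0.000102). Ocln rose from 8.0, 7.47 and 7.76 to 9.19 and 8.77, by 1.23 ± 0.19 (adjusted p = 4.24e-05). In all 3 genes the exposed arrays lay above the unexposed ones.

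Jam2 rose from 9.25, 9.09 and 9.36 to 10.11 and 10.42, by 1.03 ± 0.12 (adjusted p = 2.83e-06). Jam3 went from 9.23, 9.66 and 9.52 to 10.004 and 9.67, by 0.36 ± 0.14 (adjusted p = 0.0287). That call rested on single arrays, since the difference was 0.24 (adjusted p = 0.123) without the unexposed array 1 and 0.19 (adjusted p = 0.289) without the exposed array 1. Of the scaffolds, Tjp1 rose from 10.53, 10.73 and 10.73 to 11.32 and 11.52, by 0.76 ± 0.10 (adjusted p = 8.03e-06). Tjp3 rose from 5.46, 5.76 and 5.84 to 5.97 and 6.53, by 0.57 ± 0.15 (adjusted p = 0.00286), and did not pass without the exposed array 2 (0.29, adjusted p = 0.0958). Tjp3 was not tested with the filter at the 50th percentile.

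Nectin3 fell to 0.37 of its unexposed level, from 12.62, 13.06 and 12.86 to 12.11 and 10.74, by -1.42 ± 0.25 (adjusted p = 0.000151). Both exposed arrays lay below the others but far from each other, and the difference was -0.73 without array 2 and -2.10 without array 1, past the threshold in both cases. Nectin2 read 10.01, 9.78 and 10.01 against 10.16 and 9.82 and did not pass (0.06 ± 0.12, adjusted p = 0.682). Cxadr read 6.77, 6.51 and 6.56 against 6.79 and 6.64 on its brightest probe set and did not pass (0.10 ± 0.12, adjusted p = 0.448).

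Against exposed wild type mice, exposed homozygous mice had higher values for 6 of the 10 genes and a lower one for Nectin3, where 61.1% of all genes passed (32.7% higher and 28.4% lower). Values did not overlap for 8 of the 10, against 74.1% of all genes. The differences were 1.18 ± 0.12 for F11r, 0.98 ± 0.24 for Marveld2, 0.88 ± 0.12 for Jam2, 0.87 ± 0.15 for Tjp3, 0.74 ± 0.10 for Tjp1, 0.72 ± 0.19 for Ocln and -1.76 ± 0.25 for Nectin3, all with an adjusted p of 0.00455 or less. Without exposed homozygous array 1 Ocln did not pass (0.51, adjusted p = 0.0632), and without array 2 Marveld2 did not (0.51, adjusted p = 0.0913). None of the 7 passed with the difference between 3' and 5' probe sets of beta-actin, a measure of RNA quality, as a covariate, where 592 of 16305 genes did. The value was then 0.91 for Ocln (adjusted p = 0.160) and 0.88 for F11r (adjusted p = 0.0507), 0.45 for Tjp1 and for Jam2, -0.85 for Nectin3, 0.23 for Tjp3 and 0.12 for Marveld2. The beta-actin difference was 0.95 to 1.44 in the homozygous arrays of both exposures and 0.55 to 0.78 in all others.

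The PTU effect in homozygous mice differed from that in wild type mice for 7 of the 10 genes at day 25, where 59.4% of all genes passed (33.1% higher and 26.3% lower). The differences were 1.41 ± 0.17 for F11r, 1.12 ± 0.26 for Ocln, 1.12 ± 0.32 for Marveld2, 0.85 ± 0.13 for Tjp1, 0.73 ± 0.16 for Jam2, 0.70 ± 0.20 for Tjp3 and -1.48 ± 0.34 for Nectin3. Those of F11r, Ocln, Tjp1, Jam2 and Nectin3 passed in all 19 alternatives, while without the exposed homozygous array 2 those of Marveld2 (0.65, adjusted p = 0.0735) and Tjp3 (0.42, adjusted p = 0.0584) did not. None of the 19 leaves out both exposed homozygous arrays, since the homozygous effect could not then be fitted. For the heterozygous effect 0 of the 10 genes passed, and limma called 0% of all genes, with 2982 at an unadjusted p under 0.05. Averaged over genotypes 8 of the 10 genes passed (7 higher and 1 lower, against 63.9% of all genes, 36.3% higher and 27.6% lower). With both exposed homozygous arrays left out, the average over the other genotypes passed for 1, Marveld2 (0.39, adjusted p = 0.0339). With all arrays high in Spink8 left out, Marveld2 did not pass either (0.28, adjusted p = 0.115).

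At day 15, by comparison, the Ocln, F11r and Jam2 effects in homozygous mice were -0.65, -0.36 and -0.27, and at day 25 they were 1.23, 1.41 and 1.03. Each age had an array type of its own, and the difference between ages was not tested.

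**Figure D4:**
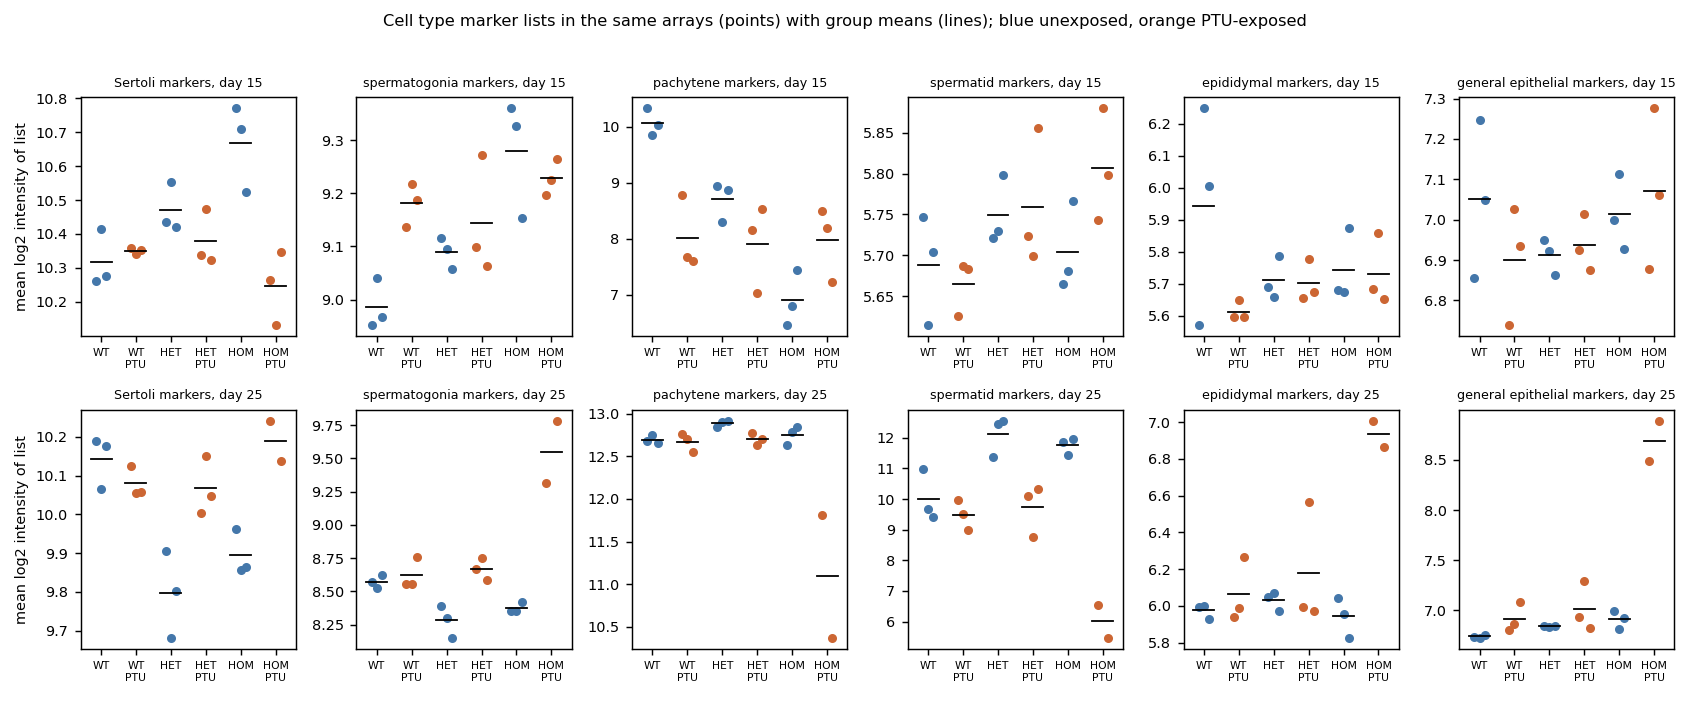
Mean log2 intensity of 6 cell type marker lists in every array, day 15 above and day 25 below; points are arrays, lines are group means, blue is unexposed and orange PTU-exposed. At day 25 the 2 exposed homozygous arrays have the lowest spermatid and pachytene means and the highest spermatogonia, epididymal and general epithelial means.

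Markers of other cell types moved with these results at day 25. In homozygous mice all 11 spermatid markers and all 12 pachytene markers fell with exposure, and the pachytene list mean was 11.81 and 10.37 in the exposed arrays against 12.63 to 12.84 in the unexposed. All 9 spermatogonia markers tested rose, and 10 of 14 Sertoli markers rose and 3 fell. Of 10 general epithelial markers 9 rose, with list means of 8.49 and 8.89 against 6.81 to 6.997. Of 8 epididymal markers tested 4 rose and 3 fell, with list means over 12 markers of 7.01 and 6.86 against 5.83 to 6.04. Of 6 peritubular markers 4 rose and 1 fell, and of 10 early meiotic markers 7 rose and 1 fell. Their part in the junction gene values was not tested. Across the 17 arrays of day 25 the general epithelial list mean correlated with F11r (r = 0.94), Jam2 (0.92), Tjp1 (0.90), Tjp3 (0.84), Marveld2 (0.83) and Ocln (0.74). For Jam3, Cxadr, Nectin2 and Nectin3 r was 0.31, -0.03, -0.05 and -0.93. Other lists correlated as closely. For the spermatogonia list r was 0.98 for F11r, 0.96 for Tjp1, 0.94 for Marveld2, 0.87 for Jam2, 0.85 for Ocln and 0.83 for Tjp3. For Jam3, Cxadr, Nectin2 and Nectin3 it was 0.54, 0.01, 0.09 and -0.85. The pachytene list had r of 0.97 with Nectin3 and of -0.92 with F11r. These correlations carry the group differences above.

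Probe sets of the same gene did not all read alike at day 25. In homozygous mice all 6 probe sets of Nectin3 fell with PTU, from -0.44 (1417319_at) to -2.53 (1421132_at, 8.22, 8.42 and 8.47 against 6.15 and 5.52). Both probe sets of Ocln rose (0.92 and 1.23). Of 5 for Jam2, 3 rose and 1 fell (1431417_at, -0.46). In the case of F11r the dimmer probe set (1436374_x_at, near 4.9) differed by -0.18 and did not pass.

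Cxadr gave the widest spread. Its probe set 1453282_at rose from 5.09, 4.81 and 4.62 to 7.58 and 8.57, by 3.24 ± 0.23. The unexposed arrays lay near the filter on low values (4.76), 1 of them below it, so the size of this difference rests on dim values. The probe set 1427321_s_at rose by 1.09 ± 0.18. The brightest one, 1449949_a_at, differed by 0.10 and 1451865_at fell by 0.44. Nectin2 likewise rose on 1424456_at (7.37, 7.03 and 7.24 against 7.74 and 8.38, by 0.85 ± 0.18) and not on its brightest probe set. Whether these probe sets read different transcripts was not tested. In heterozygous mice 1 of 5 Jam2 probe sets (0.58) and 1 of 4 Cxadr probe sets (0.81) rose with PTU.

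**Figure D5:**
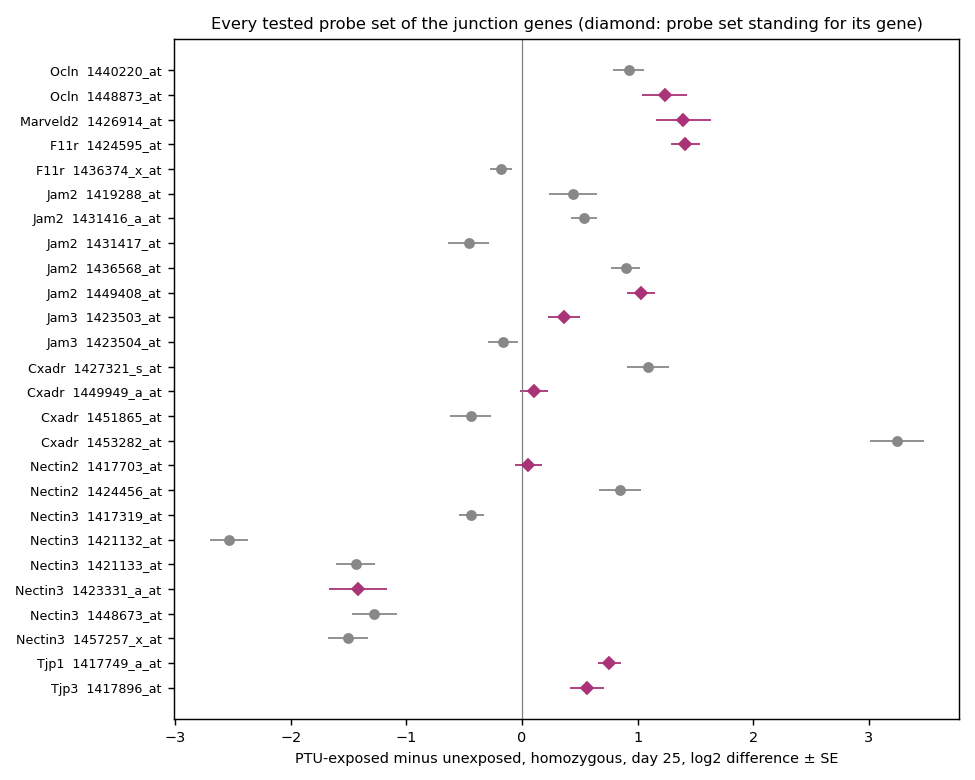
Difference between PTU-exposed and unexposed homozygous mice at day 25 in log2 units, with standard error bars, for each tested probe set of the 10 genes; diamonds mark the probe set standing for its gene. The 6 Nectin3 probe sets all lie below 0, and the Cxadr probe sets run from -0.44 to 3.24.

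Other genes of the same junctions and of the polarity complexes tied to them were read as a list of 30, of which 28 were found and tested at both ages. At day 15, between unexposed homozygous and wild type mice, 10 of the 28 rose and 3 fell, against 28.9% of all genes in either direction, with a median of 0.21. The smallest p belonged to Pard3 (0.51 ± 0.09), the polarity scaffold that binds junctional adhesion molecules, then to Amotl2 (0.67 ± 0.13), an angiomotin relative, Cgnl1 (0.52 ± 0.12), which encodes paracingulin, and Mpdz (0.37 ± 0.09), a multi-PDZ scaffold. With PTU in wild type mice 4 of the 28 rose and 2 fell, against 15.3% of all genes, led by Mpdz (0.45 ± 0.09), Pard6g (0.39 ± 0.10) and Cgnl1 (0.40 ± 0.12), while Pard3b, a relative of Pard3, fell by 0.53. Pard3b fell by 0.80 in heterozygous and 0.68 in homozygous mice as well. The averaged effect on Pard3b was -0.67 ± 0.09 and that on Pvr, a nectin relative, -0.48 ± 0.09. Between the PTU effects of homozygous and wild type mice 5 of the 28 differed and all 5 were lower in homozygous mice, where 16.4% of all genes differed, led by Mpdz (-0.54 ± 0.12) and Prkci (-0.41 ± 0.11).

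At day 25, 14 of the 28 rose and 8 fell with PTU in homozygous mice, against 71.2% of all genes, with a median of 0.32. Pard6a fell by 1.24 (standard error 0.11), while Prkci, the atypical protein kinase C that acts with it, rose by 1.41 ± 0.14. Amotl2 rose by 1.22 ± 0.12 and Mpdz by 1.16 ± 0.13. In wild type mice 0 of the 28 passed (0% of all genes), and in heterozygous mice 5 rose and 2 fell, against 18.7% of all genes, led by Mpdz (0.59 ± 0.11) and Cadm1 (0.38 ± 0.08), a spermatogenic adhesion molecule. Mpdz thus passed with PTU in wild type mice at day 15 and in heterozygous and homozygous mice at day 25.

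The genes most like 4 of the members were found by Pearson correlation across all arrays of an age, a description that carries the group differences above. At day 15 they were Asah1, Meis1 and Rab30 for Ocln (r = 0.94 to 0.95 over 18 arrays), Cdc42se1, Dpysl4 and Irak1 for F11r (0.94), Lrrcc1, Zfp35 and Cfap97 for Nectin3 (0.96) and Opa1, Sap130 and Zbtb20 for Tjp1 (0.91 to 0.92). At day 25 they were Capn6, Metap1d and Ttc33 for Ocln (0.94 to 0.95 over 17 arrays), Cyth3, AU015836 and Washc5 for F11r (0.99), Rdh11, Phospho2 and Mdh1b for Nectin3 (0.99 to 1.00) and Pdpr, Scap and Pprc1 for Tjp1 (0.99). Without the 2 exposed homozygous arrays the day 25 values fell to between 0.86 and 0.96.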

How the data were processed

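RNA of whole testis was measured on Affymetrix arrays, 1 array type for the 18 arrays of day 15 and another for the 17 of day 25. The deposited values are log2 intensities that the authors made with RMA, as the submitters' processing notes name it. The sources used here do not state its version. They were used as deposited (2.19 to 14.95 at day 15, 2.81 to 15.14 at day 25). A further exposed homozygous array of day 25, which the design text says was dropped for quality, was not analysed here.

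Probe sets were named from the platform annotation. At day 15, 21789 of 35556 have 1 symbol, 1621 several and 12146 none, and at day 25, 34958 of 45101, with 932 and 9211. Only those with 1 symbol were used. Each gene was read by its brightest probe set on average. To be tested, it had to lie above the 25th percentile of the values of its age (5.56 and 4.76) in at least 2 arrays, as 16710 and 16305 genes did.

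Each age was fitted by itself on all its arrays with limma 3.58.1 in R 4.3.3 (lmFit on 6 group means, eBayes, 9 contrasts, Benjamini-Hochberg adjustment over all genes tested, threshold 0.05). The fit was tested on simulated data. The number of arrays limits precision. The members, the lists and the tests were chosen with earlier results of these data known. All members are named, with up to 4 genes of the other junction list per comparison and the 3 most correlated genes of Ocln, F11r, Nectin3 and Tjp1. Cell types are read by their lists.

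The labels number the samples of each group but give no litter or batch. Same-numbered deviations from group means correlated above 0.1 for all 3 numbers in 4 comparisons, where the sample number may pair the samples. At day 15 they were PTU in heterozygous mice (0.391 to 0.444), unexposed heterozygous minus wild type (0.181 to 0.374) and exposed homozygous minus wild type (0.141 to 0.557). At day 25 it was PTU in wild type mice (0.233 to 0.396). For PTU in homozygous mice at day 15 the correlations were negative (-0.252 to -0.207). The labels state no pairing.

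Alternatives were array weights, quantile normalization, a filter at the 50th percentile or none, all probe sets taken singly, the sample number as a replicate block, only the groups compared, each array left out, and at day 15 a block for the array set, which splits the arrays on 1685 unnamed probe sets whose mean exceeds 9, and no arrays with Spink8 above 7. Alternatives added after seeing the data were the fits within an array set, and at day 25 the beta-actin covariate and the fits without the exposed homozygous arrays or the arrays high in Spink8.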

Additional observations from a re-analysis of the deposited data

Results flagged for a closer look

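The PTU effect differed between homozygous and wild type mice by the interaction term of the limma fit for 6 of the 10 genes at day 15 and for 7 at day 25. At day 15 the differences in effect were -0.96 for Ocln, -0.78 for F11r, -0.63 for Jam2, -0.57 for Nectin2, -0.41 for Tjp1 and 0.90 for Nectin3. At day 25 they were 1.41 for F11r, 1.12 for Marveld2, 1.12 for Ocln, 0.85 for Tjp1, 0.73 for Jam2, 0.70 for Tjp3 and -1.48 for Nectin3. Over all genes 16.4% passed at day 15 and 59.4% at day 25. In the day 15 fit 11 of 12 pachytene markers were higher for the same difference and 5 of 15 Sertoli markers lower. The 2 exposed homozygous arrays of day 25 also differ from all others in spermatid, general epithelial and epididymal marker means, and the part of those shifts was not tested.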

How the results depend on the processing

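The calls of Ocln, F11r, Jam2, Cxadr and Nectin3 between unexposed homozygous and wild type mice at day 15, and of Cxadr and Nectin3 with PTU in wild type mice, passed in all 16 alternatives, and those of Ocln, Marveld2, F11r, Jam2, Tjp1 and Nectin3 with PTU in homozygous mice at day 25 in all 13. At day 15 the fit without the arrays high in Spink8 kept 1 unexposed wild type array. None of the 13 leaves out both exposed homozygous arrays, since the effect could not then be fitted. With every probe set on its own, the probe set with the smallest p stood for its gene. At day 15 the count of the 10 genes called for unexposed heterozygous minus wild type (2) was 1 with no filter, 1 with only the groups compared, 1 with the array set as a block, 1 without the Spink8 arrays, 0 within array set 1 and 6 with array weights. For PTU averaged over genotypes (2) it was 4 with array weights, 1 without the Spink8 arrays and 1 within array set 1. For PTU in heterozygous mice (1) it was 0 with only the groups compared, the array set as a block, without the Spink8 arrays and within array set 1 or 2. For PTU in homozygous mice (2) it was 0 with only the groups compared, without the Spink8 arrays and within array set 1 or 2. Without the Spink8 arrays it was 2 for PTU in wild type (4) and 3 for the homozygous interaction (6). The heterozygous interaction and exposed homozygous minus wild type (both 0) each had 2 with array weights and 1 with the replicate block. At day 25 unexposed heterozygous minus wild type (0) had 1 with only the groups compared, every probe set or the filter at the 50th percentile, 2 with array weights, the beta-actin covariate or without the Spink8 arrays, and 3 without the exposed homozygous arrays. PTU in heterozygous mice (1) had 2 with every probe set, 0 with the replicate block and 3 without the exposed homozygous arrays. Unexposed homozygous minus wild type (0) had 1 with every probe set and 2 with array weights, and the heterozygous interaction (0) had 1 with array weights. Exposed homozygous minus wild type (7) had 0 with the beta-actin covariate. PTU averaged (8) had 1 without the exposed homozygous arrays and 0 without the Spink8 arrays. The replicate block changed no other count by over 1.5 times. Leaving out 1 array gave, at day 15, 2 to 3 genes for PTU in wild type mice, for heterozygous mice 0 to 1, for homozygous mice 0 to 3, 1 to 3 averaged, 6 for unexposed homozygous and 1 to 2 for heterozygous minus wild type, 0 to 2 for exposed homozygous minus wild type, and 4 to 7 and 0 for the interactions. At day 25 it gave 0, 0 to 3, 7 to 8, 7 to 9, 0, 0 to 4, 6 to 7, 5 to 7 and 0 in the same order. Directions turned with every probe set on its own at day 25 for Cxadr in exposed homozygous minus wild type (2.36) and in the homozygous interaction (2.81), for Nectin2 in exposed homozygous minus wild type (0.58), and for Jam2 in unexposed heterozygous (-0.40) and homozygous (-0.61) minus wild type, where another probe set had the smallest p. Nectin3 averaged over genotypes was 0.017 without the Spink8 arrays, where the exposed homozygous group is absent. The causes of the other moves were not tested. Counts over all genes moved as well, in the order above from 831 to 6820 (reported 2553), 1 to 499 (95), 0 to 1598 (828), 846 to 3650 (2001), 2476 to 7404 (4821), 0 to 3673 (660), 0 to 3308 (0), 1026 to 4904 (2734) and 0 to 652 (75) at day 15, and 0 to 6 (0), 874 to 4445 (3042), 8438 to 19480 (11615), 27 to 17020 (10423), 84 to 4871 (2065), 1433 to 5152 (3680), 592 to 16954 (9959), 7910 to 15755 (9684) and 0 to 2003 (0) at day 25, where 19480, 17020, 5152, 16954 and 15755 count probe sets. In unexposed homozygous arrays of day 25, 1 Cxadr probe set lay near the filter, and Marveld2 and Tjp3 lay below the 50th percentile (6.52). Their differences rest on dim values.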
